A study of Mus musculus with 3 samples.

Results

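Rab GTPases were examined in 3T3-L1 adipocytes, fat cells grown from a mouse preadipocyte line, at 3 times of differentiation. Members were genes whose symbol is Rab followed by a number and an optional letter, found by matching each probe's RefSeq accession to mouse gene symbols, with Rab10 left out. They came to 56 genes with 78 probes, among 20144 named genes and 39429 non-control probes on the array. Rab36 and Rab44, which also fit the naming rule, had no probe matched by accession and were not analysed here. The rule used no measured value.

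The 3 groups were cells at day 2, day 8 and day 20 after induction of adipogenic differentiation, with 1 Agilent 1-colour array of total RNA each. The labels give no genotype, treatment or culture number that separates the days beyond time, and the line is a single clone of fibroblast-like preadipocytes, so the cultures model fat cell formation outside the tissue. A single array per day leaves nothing to test differences with, and p-values are therefore absent. Beside each log2 difference stands a technical standard deviation (SD) of that difference. It combines the spread between repeated spots at that brightness on the arrays compared, and is smaller for probes with more spots. It does not hold the spread between cultures.

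Rab proteins are small GTPases of the Ras superfamily that act as switches on membranes. In the GTP-bound state a Rab recruits effectors such as tethers, motors and coat adaptors, and in the GDP-bound state it is taken off the membrane by GDI. Exchange factors (GEFs) load GTP and GTPase-activating proteins (GAPs) speed its hydrolysis. Each Rab marks particular compartments, from the endoplasmic reticulum (ER) and Golgi through endosomes to secretory vesicles. In fat cells Rabs are best known for moving the glucose transporter GLUT4, encoded by Slc2a4, to the cell surface after insulin, and Rab18 is found on lipid droplets.

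A level is log2 of the processed spot intensity minus the array's own 75th percentile over non-control probes, so that 0 is a bright probe. That percentile was 662, 636 and 927 intensity units on days 2, 8 and 20. Spots well above background made up 55.9%, 56.9% and 55.3% of each array, and 0 spots were saturated. Adipocyte markers checked the label: 7 of 8 were above background on day 2 and 8 of 8 on days 8 and 20, with Lep (leptin) the one missing on day 2. Adipoq, which encodes the hormone adiponectin, had levels of 5.07, 8.90 and 8.18 on days 2, 8 and 20, and Slc2a4 had 2.21, 5.63 and 5.64. Plin1, Pparg and Cfd were also lowest on day 2, while Fabp4, a fatty acid carrier, had 8.40, 8.35 and 7.65, and Cebpa, a transcription factor of adipogenesis, had 3.05, 2.64 and 2.76, so these markers did not all run the same way. Summed over the 8 adipocyte markers, signal relative to the 75th percentile was 441, 1354 and 921. In 5 macrophage markers the same sum was 9.0, 11.5 and 6.20, with Adgre1 and Ptprc not well above background on any day. That sum was mostly Itgam (3.05, 3.30 and 2.17 on the log2 scale), and Cd14 stood at -2.92, 0.05 and 0.37. In 4 endothelial markers it was 4.65, 4.27 and 2.76, mostly from Kdr (2.19, 2.07 and 1.44 on the log2 scale), with Cdh5 and Tek not above background. In 4 epithelial markers it was 0.12, 3.88 and 2.35 (Cdh1 and Krt8 not above background), mostly from Krt18 at -3.68, 1.94 and 1.22 on the log2 scale. In 4 skeletal muscle markers it was 0.12, 1.25 and 1.37, from Des and Acta1 (Myod1 and Myog not above background). The part of these marker changes in the Rab results was not tested. In such bulk RNA, fewer cells of a type and less RNA per cell cannot be told apart.

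Most Rab genes were detected at all 3 times. Of the 56, 42 (75%) were well above background on every day, 5 on some days and 9 on none. Over all named genes the share on every day was 58.6%. On at least 1 day, 83.9% of the Rab genes and 66.8% of all named genes were above background. By day, 44, 47 and 43 Rab genes were above background on days 2, 8 and 20. The median level of those detected was 1.26, 1.12 and 1.81, and that of all genes detected was 0.23, 0.17 and 0.29. No test of these differences was made.

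Not well above background on any day were 9 Rabs. Rab27a and Rab27b serve melanosomes and secretory granules, Rab25 is an epithelial recycling Rab, Rab26 acts on secretory granules and Rab15 is abundant in brain. The other 4 were Rab9b, Rab19, Rab39 and Rab39b. Rab3a, the synaptic vesicle form, and Rab3c and Rab6b, best known from neurons, were above background on every day. Why the 9 were not detected was not tested. Rab38, a melanosome Rab, and Rab17, an epithelial one, passed on day 8 alone, at levels of -5.33 and -5.40, close to the lowest level of any probe above background on that array (-5.76). By role, detection on all 3 days was 11 of 12 for Rabs of the ER and Golgi, 6 of 7 for the early endosome, 6 of 9 for the recycling endosome, 8 of 10 for the late endosome and lysosome, 6 of 11 for exocytosis and 5 of 7 for Rabs of other or less settled role.

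**Figure D1:**
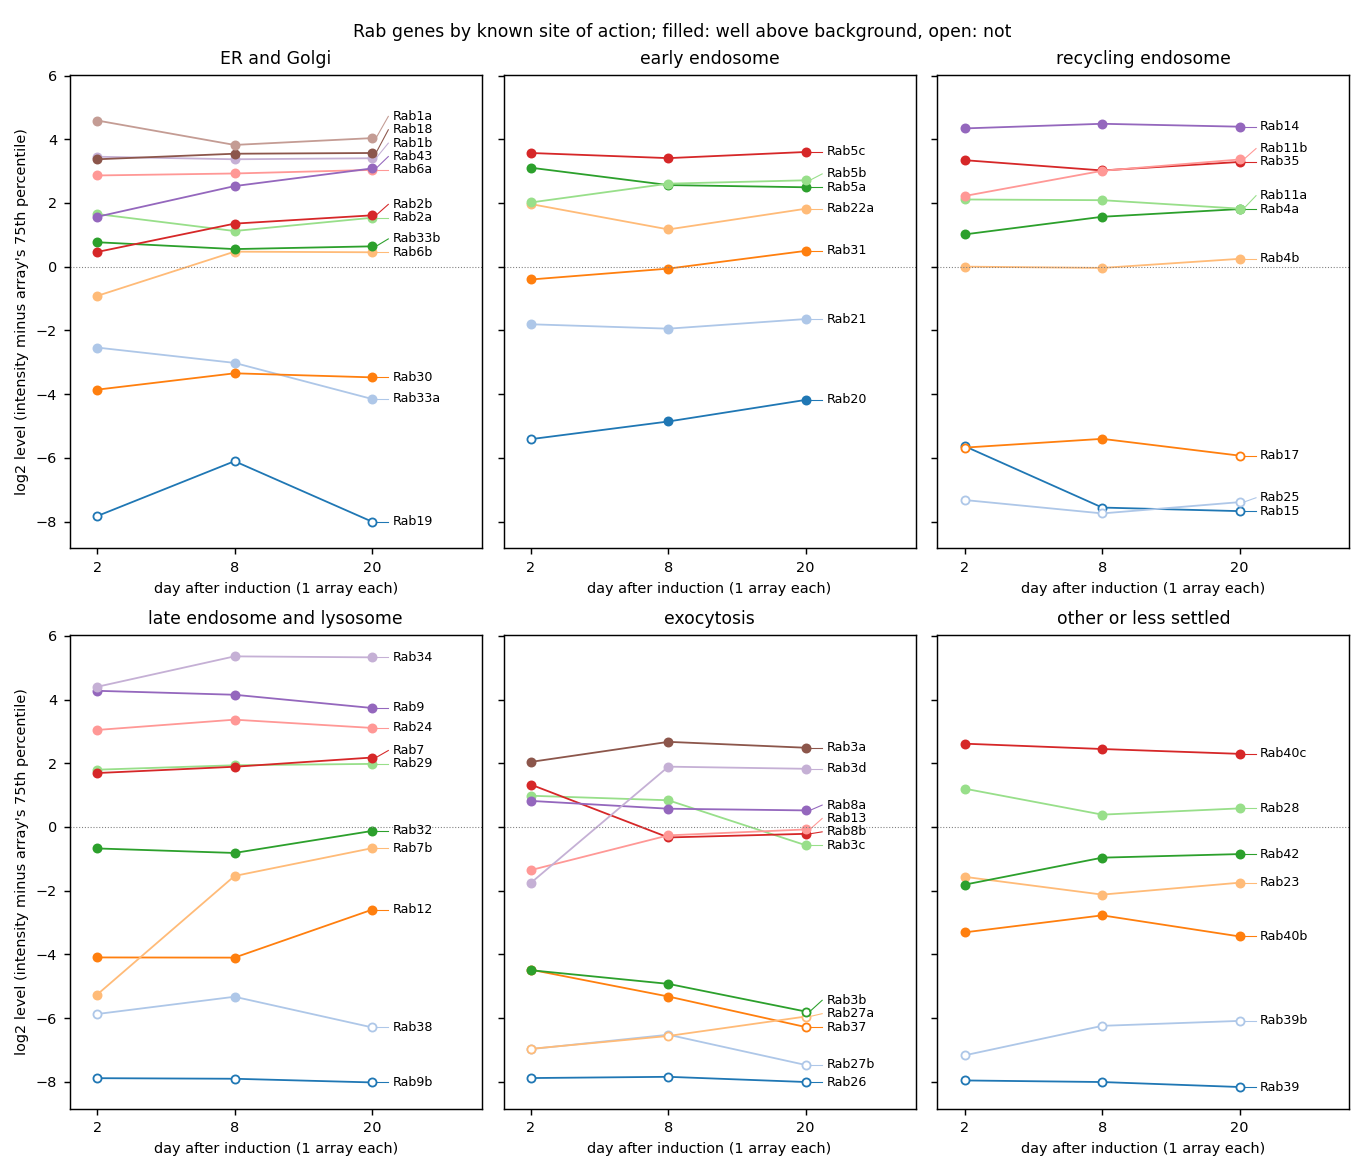
Level of each Rab gene (log2 intensity minus the array's 75th percentile, vertical axis) on days 2, 8 and 20 (horizontal axis, 1 array each), in 1 panel per role, with filled points well above background and open points not. Most lines change little, while Rab7b (-5.26, -1.54 and -0.67) and Rab3d (-1.75, 1.89 and 1.83) climb steeply between days 2 and 8.

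From day 2 to day 8, 5 of 44 measured Rab genes, meaning above background on both arrays, differed by 2-fold or more, beside 26.7% of all measured genes. At least 2-fold higher on day 8 were 4 of them (9.09%; all genes 13.8%), and 1 was at least 2-fold lower (2.27%; all genes 12.9%). The 4 were Rab7b, Rab3d, Rab6b and Rab13, and the 1 lower was Rab8b. In all, 28 of the 44 (63.6%) lay within 1.5-fold, against 52.2% of all genes. The median log2 difference of the Rab genes was -0.01, beside -0.06 for all genes, and its sign depended on the scaling, positive with cyclic loess (0.12) and negative with each array's median (-0.12). Rab17, Rab20 and Rab38 were above background on day 8 alone of these days, with bounds of 1.21-fold, 1.47-fold and 1.29-fold, while 25.1% of all genes with a bound were at least 2-fold higher and 10.9% lower. The values of Rab17 and Rab20 are plain differences and not lower limits.

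From day 8 to day 20, 3 of 43 measured Rab genes were past 2-fold, beside 5.32% of all genes. In that comparison 1 was at least 2-fold higher on day 20 (2.33%; all genes 3.58%) and 2 were at least 2-fold lower (4.65%; all genes 1.74%). The 1 higher was Rab12, and the 2 lower were Rab3c and Rab33a. In all, 35 of the 43 (81.4%) lay within 1.5-fold, beside 82.6% of all genes. The median difference was 0.11, beside -0.05 for all genes. Rab3b, Rab17, Rab37 and Rab38 were above background on day 8 and not on day 20, and none of their bounds reached 2-fold, while 8.19% of all genes with a bound were at least 2-fold higher and 8.58% lower. The split of measured Rab genes depended on the scaling: 3 higher and 1 lower with cyclic loess, 2 and 1 with the array median. It was 10 (23.3%) and 0 with the spike-in probes. Shares of all genes in those settings were 4.96% higher and 1.05% lower, 5.21% and 0.998%, and 17% and 0.17%. Spike-in scaling put the median of all measured genes at 0.62 for day 20 minus day 8 and 0.54 for day 20 minus day 2, so differences here are relative to each array's 75th percentile.

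Over the whole span, 11 of 42 measured Rab genes differed by 2-fold or more, beside 32.5% of all genes: 8 were higher on day 20 than on day 2 (19.0%), beside 15.5% of all genes, and 3 were lower (7.14%), beside 17.0%. The higher ones were Rab7b, Rab3d, Rab43, Rab12, Rab6b, Rab13, Rab2b and Rab11b. The lower ones were Rab33a, Rab3c and Rab8b. With spike-in scaling the split was 17 higher (40.5%; all genes 32%) and 0 lower (all genes 5.91%). Under the main scaling the median difference was 0.17 for Rab genes and -0.14 for all genes, and 24 Rab genes (57.1%) lay within 1.5-fold, beside 44.9% of all genes. Among the 3 Rab genes detected on 1 of these 2 days, Rab20 was 2.35-fold higher on day 20, where 29.5% of all genes with a bound were at least 2-fold higher. Rab37 was at least 2.70-fold lower and Rab3b was 2.46-fold lower, where 15.5% of all genes with a bound were at least 2-fold lower. For Rab20 and Rab3b the undetected value lay above that array's lowest level above background. Their folds are therefore plain differences (technical SD 0.372 and 0.422) and not lower limits.

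The same shares were taken over bright probes. Among the 32 Rab genes with a mean level above 0, the day 8 against day 2 counts past 2-fold were 2 higher and 1 lower, beside 12.3% and 12.5% of all genes of that brightness. On day 20 against day 8 the counts were 0 and 1, beside 1.31% and 0.907%. On day 20 against day 2 they were 5 and 2, beside 13.3% and 17.6%.

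**Figure D2:**
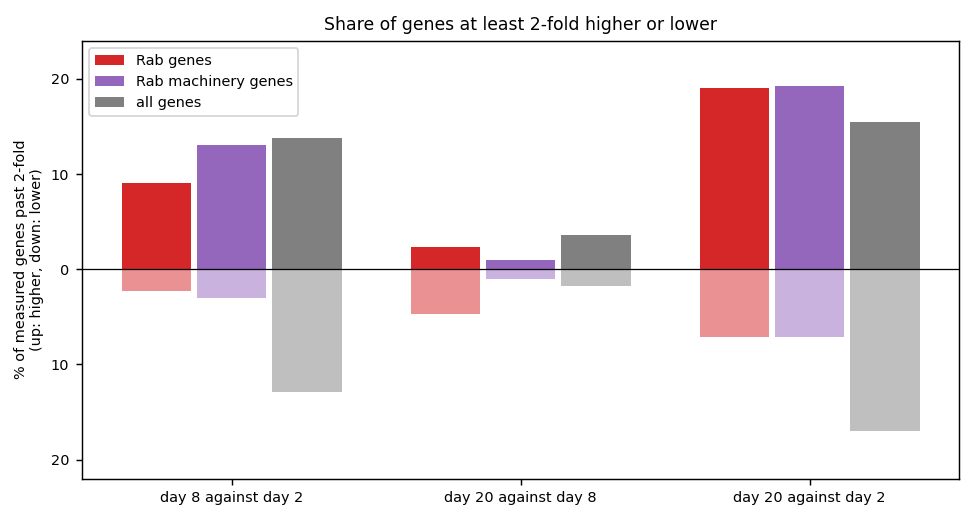
Share of measured genes at least 2-fold higher (upward bars) or lower (downward bars) in each comparison of days, in percent, for Rab genes, genes of the Rab machinery and all genes. Downward bars of Rab genes (2.27% on day 8 against day 2, 7.14% on day 20 against day 2) are shorter than those of all genes (12.9% and 17.0%), except on day 20 against day 8 (4.65% beside 1.74%).

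Of the 42 Rab genes detected on every day, 29 (69.0%; all genes 72.2%) had a larger difference between days 2 and 8 than between days 8 and 20. With spike-in scaling this held for 9 of the 42 (21.4%; all genes 49.3%), so which interval held the larger step depended on the scaling. The differences were positive at both steps in 13 (31.0%; all genes 21.8%), negative at both in 7 (16.7%; all genes 31.0%), positive then negative in 8 (19.0%; all genes 24.8%) and negative then positive in 14 (33.3%; all genes 22.3%). With spike-in scaling these counts were 23 (54.8%; all genes 44.9%), 2 (4.76%; all genes 2.96%), 0 (all genes 3.07%) and 17 (40.5%; all genes 49.1%). Signs were counted with no threshold, so differences inside 1 technical SD count too, such as -0.005 (0.262) for Rab12, day 8 minus day 2. In 11 Rab genes with 2 or more measured probes, all probes shared a sign in 10 for day 8 against day 2. For day 20 against day 8 they did so in 8 of 11. Within 1.5-fold in all 3 comparisons were 19 genes (45.2%; all genes 36.4%), or 4 with spike-in scaling (9.52%; all genes 19.7%).

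**Figure D3:**
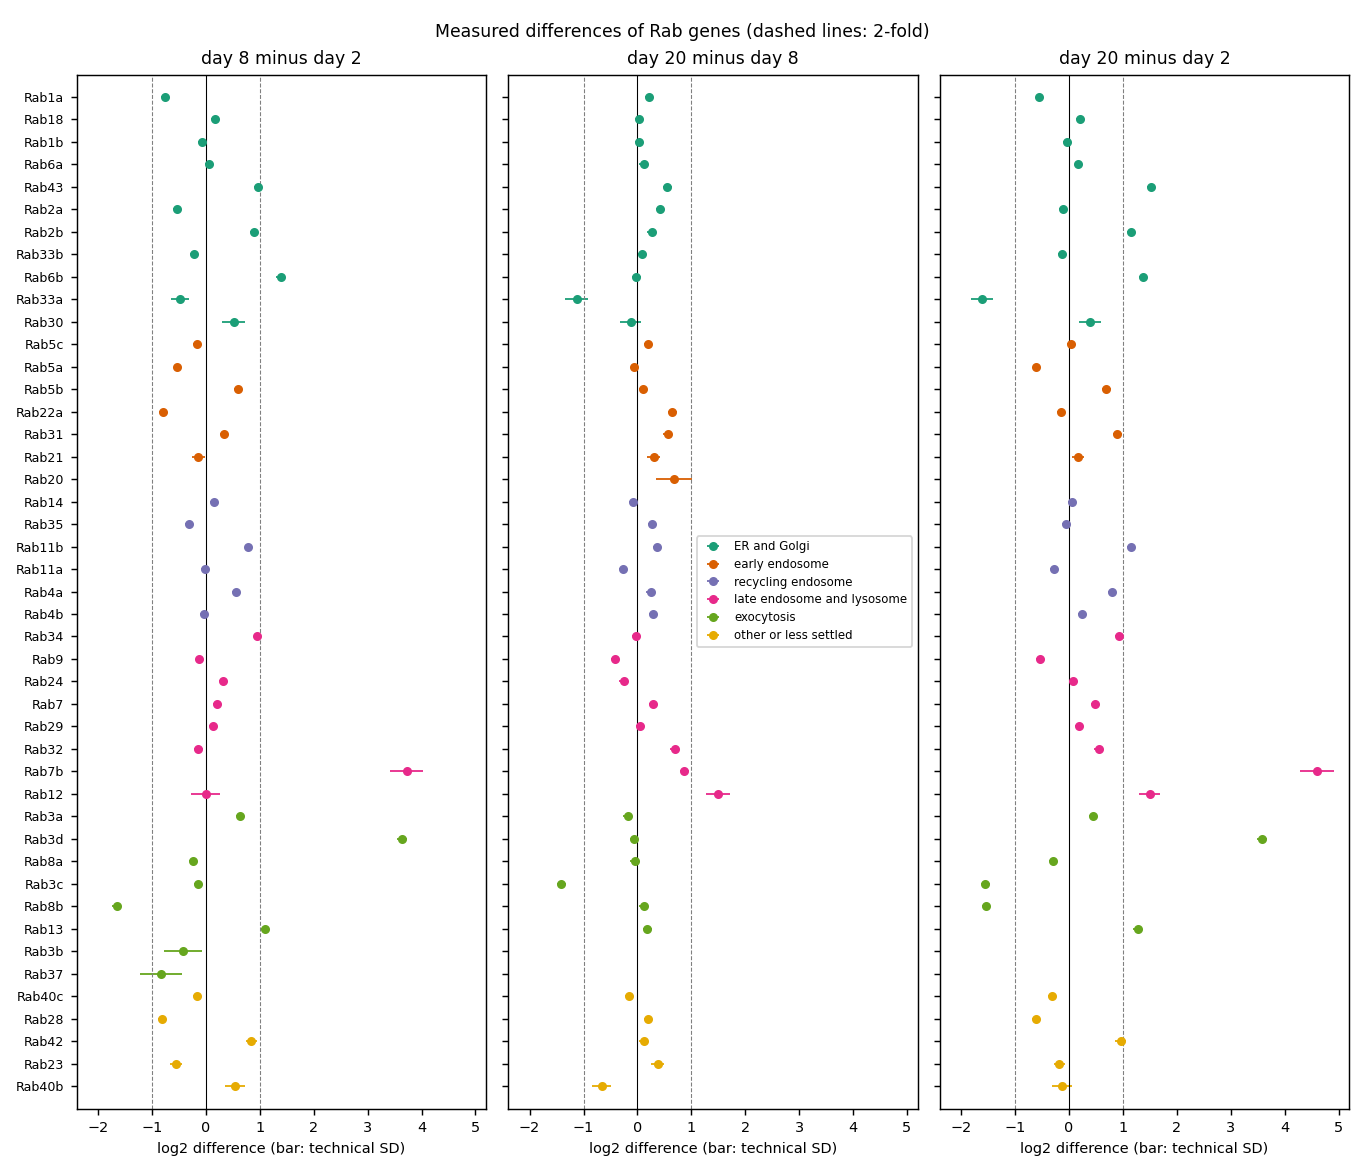
Measured log2 difference of each Rab gene (horizontal axis) for day 8 minus day 2, day 20 minus day 8 and day 20 minus day 2, with bars of 1 technical SD, dashed lines at 2-fold and colours by role. Rab7b (3.72) and Rab3d (3.64) stand far to the right in the first panel, and Rab8b (-1.66) stands to the left.

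Rabs of exocytosis differed in both directions. Rab3 proteins act in regulated secretion, and Rab3d, the form known from secretory granules of exocrine cells and also from fat cells, had levels of -1.75, 1.89 and 1.83 on days 2, 8 and 20. Its probe read 197, 2362 and 3288 intensity units before scaling. Day 2 was low, and days 8 and 20 were high and alike. The log2 difference was 3.64 for day 8 minus day 2 (technical SD 0.091, 12.5-fold), -0.07 for day 20 minus day 8 (0.079) and 3.58 for day 20 minus day 2 (0.092, 11.9-fold). A dimmer Rab3d probe failed the background criterion on day 2 and stood at -1.97 and -2.11 on days 8 and 20, so it showed the same order. Across the alternative scalings, background corrections and filters the main probe's day 8 minus day 2 difference ranged from 3.32 to 3.80.

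Rab3a, the synaptic vesicle form and the member of this role with the brightest probe, had levels of 2.04, 2.67 and 2.49, all 3 within 2-fold. Rab3c, a close relative best known from neurons, had 0.98, 0.84 and -0.57. Its first 2 days were alike and day 20 was low, at -1.41 for day 20 minus day 8 (technical SD 0.082, 2.66-fold lower) and -1.55 for day 20 minus day 2 (0.079, 2.93-fold lower). A further Rab3c probe gave -1.25 and -1.46 for the same comparisons, and a remaining one was not well above background. With spike-in scaling the difference of day 20 minus day 8 was -0.75, under 2-fold. Rab3b was dim, at -4.50 and -4.93 on days 2 and 8, and failed the background criterion on day 20.

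Rab8 proteins carry vesicles from the Golgi and recycling endosomes to the plasma membrane. Rab8b had levels of 1.33, -0.33 and -0.22 on days 2, 8 and 20, from 1663, 506 and 799 intensity units. Day 2 was high and the later days were low: the difference was -1.66 for day 8 minus day 2 (technical SD 0.076, 3.15-fold lower) and -1.54 for day 20 minus day 2 (0.077, 2.91-fold lower). A dimmer Rab8b probe gave -1.17 for day 20 minus day 2 and failed the background criterion on day 8. With spike-in scaling the day 20 minus day 2 difference was -0.86, under 2-fold. Rab8a stood at 0.82, 0.57 and 0.52, within 1.5-fold in each comparison.

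Rab13, which acts at epithelial junctions and in GLUT4 traffic of muscle cells, had levels of -1.35, -0.26 and -0.08. Day 2 was the low one, with a difference of 1.09 for day 8 minus day 2 (technical SD 0.079, 2.13-fold) and 1.27 for day 20 minus day 2 (0.081, 2.42-fold). The first of these was 0.98, just under 2-fold, when arrays were scaled on their median. Rab37, a Rab of secretory granules, had -4.48 and -5.32 on days 2 and 8 and failed the background criterion on day 20.

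Among Rabs of the late endosome and lysosome, Rab7b had the largest difference of any Rab gene under the main settings. Rab7b acts between endosomes and the trans-Golgi network, while its relative Rab7 drives fusion of late endosomes with lysosomes. Rab7b had levels of -5.26, -1.54 and -0.67 on days 2, 8 and 20, from 17.3, 219 and 584 intensity units. The 3 days stood in ascending order, 3.72 for day 8 minus day 2 (technical SD 0.314, 13.2-fold), 0.87 for day 20 minus day 8 (0.092, 1.83-fold) and 4.59 for day 20 minus day 2 (0.313, 24.1-fold). Its day 2 signal was close to the lowest level of any probe above background on that array (-5.70), and with a normexp background correction the differences were 1.87 for day 8 minus day 2 and 2.62 for day 20 minus day 2, both less than those of Rab3d. Rab7 had 1.69, 1.89 and 2.18, under 1.5-fold in each comparison.

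Rab12, which directs transferrin receptor from recycling endosomes to lysosomes, was dim on days 2 and 8, both at -4.10, and stood at -2.60 on day 20. Day 20 was thus the high one, at 1.5 for day 20 minus day 8 (technical SD 0.223, 2.83-fold) and 1.5 for day 20 minus day 2 (0.197, 2.82-fold). With the normexp correction these were 0.69 and 0.71, under 2-fold. Rab34, known for lysosome positioning and for cilium formation, had the brightest probe of this role at 4.40, 5.36 and 5.32, with a difference of 0.95 for day 8 minus day 2 (0.067, 1.94-fold). It passed 2-fold only under some alternatives, with a range of 0.85 to 1.13. Rab9, Rab24, Rab29 and Rab32 were measured on all days and were under 2-fold in each comparison, between -0.54 and 0.69.

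In the ER and Golgi group, Rab6b, Rab2b and Rab43 were at least 2-fold higher on day 20 than on day 2, and Rab33a was lower. Rab6 proteins move vesicles from the Golgi back to the ER and outward to the surface. Rab6b, best known from neurons, had levels of -0.92, 0.47 and 0.45, low on day 2 and alike on the later days. Its difference was 1.39 for day 8 minus day 2 (technical SD 0.077, 2.62-fold) and 1.37 for day 20 minus day 2 (0.077, 2.58-fold). Rab6a, the widely expressed form, had 2.86, 2.93 and 3.04, within 1.5-fold throughout.

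Rab2 proteins act between the ER and Golgi. Rab2b had levels of 0.46, 1.35 and 1.61, in ascending order, with 1.15 for day 20 minus day 2 (technical SD 0.075, 2.22-fold). Rab2a had 1.65, 1.12 and 1.54, with day 8 the low one and all differences under 1.5-fold. Rab43, a Golgi Rab, had 1.57, 2.53 and 3.08, also in ascending order, with 0.96 for day 8 minus day 2 (0.074, 1.95-fold) and 1.52 for day 20 minus day 2 (0.074, 2.86-fold). Its probes disagreed: a much dimmer one read -3.85, -3.82 and -3.64, a day 20 minus day 2 difference of 0.22.

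Rab33a and Rab33b are Golgi Rabs, and Rab33b takes part in autophagosome formation. Rab33a had levels of -2.54, -3.02 and -4.15 on days 2, 8 and 20, in descending order, with -1.13 for day 20 minus day 8 (technical SD 0.221, 2.19-fold lower) and -1.61 for day 20 minus day 2 (0.201, 3.06-fold lower). The day 20 minus day 8 difference stayed past 2-fold in 5 of 10 alternative settings and was smallest with spike-in scaling (-0.47). The day 20 minus day 2 difference was -0.87 with the normexp correction and -0.92 with spike-in scaling, both under 2-fold. Rab33b had 0.77, 0.55 and 0.64, within 1.5-fold, though a dim probe of it gave -1.01 for day 20 minus day 2. Rab1a, which with Rab1b drives transport from the ER to the Golgi, had the brightest probe of the group at 4.59, 3.82 and 4.04, with -0.77 for day 8 minus day 2 (0.068, 1.70-fold lower). Rab1b, Rab18 and Rab30 were measured on every day and lay between -0.13 and 0.51 in the 3 comparisons.

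Among Rabs of the early and recycling endosomes, Rab11b alone was measured at least 2-fold apart, on day 20 against day 2. Rab5 proteins organise fusion of early endosomes, and Rab5c, the brightest of that role by probe, had levels of 3.57, 3.41 and 3.60. Rab5a had differences of -0.54 for day 8 minus day 2 and -0.61 for day 20 minus day 2, and Rab5b had 0.59 and 0.69. The Rab5a probe was printed 10 times on each array, so its technical SD was small (0.023 and 0.024). Rab22a and Rab31, close relatives that act on early endosomes and the trans-Golgi network, and Rab21, an endosomal Rab of integrin traffic, were also under 2-fold in each comparison, between -0.80 and 0.90. Rab20 was the dim member, undetected on day 2 and at -4.86 and -4.18 on days 8 and 20, with a difference of 0.68 between those days (technical SD 0.333).

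Rab11 proteins govern the slow recycling route and Rab4 proteins the fast one. Rab11b had levels of 2.22, 3.01 and 3.37, in ascending order, with 1.15 for day 20 minus day 2 (technical SD 0.074, 2.21-fold). Rab11a had 2.11, 2.09 and 1.82, within 1.5-fold. Rab14, which works between the trans-Golgi network and endosomes and has been placed in GLUT4 traffic, had the brightest probe here, at 4.34, 4.49 and 4.39, within 1.5-fold. Rab4a, Rab4b and Rab35 lay between -0.32 and 0.79 in the 3 comparisons.

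Rabs of other or less settled role showed no 2-fold difference among the 5 measured. Rab40c, a Rab joined to a SOCS box that recruits ubiquitin ligases, had levels of 2.61, 2.45 and 2.30, under 1.5-fold in each comparison. Rab23, a brake on Hedgehog signalling, Rab28, a cilium Rab, Rab40b and Rab42 were measured on every day and ranged from -0.81 to 0.96.

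Pairs of close relatives were set side by side as a description, with no share for unrelated genes to read them against. Of 19 pairs of close relatives, 15 were measured in both genes for day 8 minus day 2, and 8 of those differed from each other by 2-fold or more. The count was 1 of 14 for day 20 minus day 8 and 9 of 14 for day 20 minus day 2, where the median distance within a pair was 1.22 on the log2 scale. Some genes stand in more than 1 pair. For day 20 minus day 2, Rab7b exceeded Rab7 by 4.11 (technical SD 0.322), Rab3d exceeded Rab3a by 3.13 (0.118) and Rab33b exceeded Rab33a by 1.48 (0.215). Rab11b exceeded Rab11a by 1.43 (0.106), Rab5b exceeded Rab5a by 1.31 (0.078), Rab2b exceeded Rab2a by 1.27 (0.106) and Rab6b exceeded Rab6a by 1.20 (0.106). Rab31 exceeded Rab22a by 1.04 (0.107), and Rab8b lay below Rab8a by a difference of -1.25 (0.107). Which gene of a pair is named first carries no meaning. These are differences between changes and not between levels, since levels of different probes are not amounts on a common scale. Probes of near-identical relatives can bind each other's transcripts, and how far they did was not tested.

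**Figure D4:**
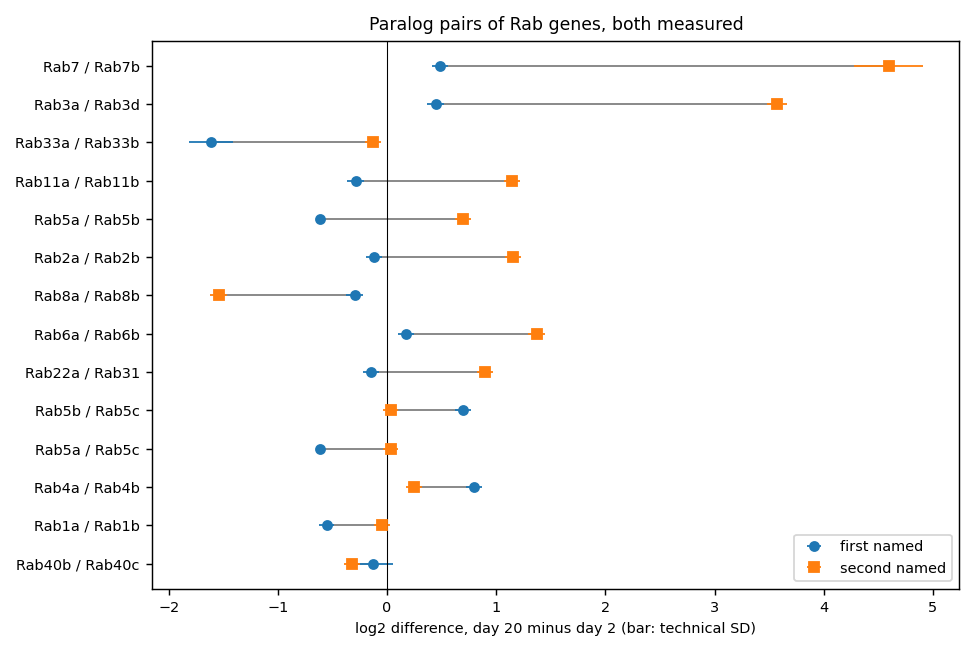
Log2 difference of day 20 minus day 2 (horizontal axis) for both genes of 14 pairs of close relatives, circles for the gene named first and squares for the second, with bars of 1 technical SD and pairs sorted by the distance within them. Rab7 and Rab7b lie farthest apart (4.11), and Rab40b and Rab40c lie closest (-0.19).

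The sequence before the transcription start was read for members with an entry in RefSeq's promoter table for GRCm38.p6, and 47 of the 56 genes had 1 or more, 59 promoters in all. The motifs counted on both strands in the 250 bases upstream were GGGCGG (the GC box), CCAAT (the CCAAT box), CACGTG (the core of the E-box) and TGACGT (the core of the cyclic AMP response element). GGGCGG was present in 66.1% of Rab promoters and in 32.7% of all 32851 promoters. CCAAT was present in 39.0% and 33.8%, CACGTG in 8.47% and 6.02%, and TGACGT in 11.9% and 6.47%. Median GC content was 60% in the Rab promoters and 52.4% in all. Among Rab genes above background on all 3 days GGGCGG stood in 71.1% of 45 promoters. Among those above background on no day it stood in 45.5% of 11 promoters, from 7 genes. The promoters of all genes were not split by detection, so whether this contrast is particular to Rab genes was not tested. These are counts of letters, with no test and no measurement of binding.

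Promoter windows of 3 of the 5 genes past 2-fold between days 2 and 8, Rab3d and Rab6b (higher on day 8) and Rab8b (lower), are shown 5′ to 3′ on the strand of the gene, so that genes of opposite course can be read side by side. Capitals mark GGGCGG and CCAAT matches on either strand, so a match on the opposite strand reads CCGCCC or ATTGG. Rab3d lies at chr9:21918184-21918433 on the minus strand (GC 69.2%, 2 GGGCGG matches), Rab6b at chr9:103111824-103112073 on the plus strand (GC 80.8%, 1 match) and Rab8b at chr9:66919706-66919955 on the minus strand (GC 64.4%, 2 matches and 1 CCAAT match). The other 2 of the 5 were Rab13 and Rab7b. Rab7b had no entry in the promoter table. Rab13 had 2 windows there, both at 57.6% GC, and they are not printed. Of these, 1 held 1 GGGCGG match and 2 CCAAT matches, and the other held neither motif. CCAAT matches thus stood in windows of a higher and of a lower gene.
Rab3d: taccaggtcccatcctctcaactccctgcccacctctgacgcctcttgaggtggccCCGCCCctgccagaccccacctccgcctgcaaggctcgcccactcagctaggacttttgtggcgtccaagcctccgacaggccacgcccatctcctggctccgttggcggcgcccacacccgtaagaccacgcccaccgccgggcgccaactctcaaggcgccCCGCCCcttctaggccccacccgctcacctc
Rab6b: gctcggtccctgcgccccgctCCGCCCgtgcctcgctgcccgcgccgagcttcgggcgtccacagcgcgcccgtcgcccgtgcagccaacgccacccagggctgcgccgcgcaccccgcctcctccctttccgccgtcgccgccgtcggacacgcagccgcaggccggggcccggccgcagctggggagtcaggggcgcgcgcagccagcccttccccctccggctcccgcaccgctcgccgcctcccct
Rab8b: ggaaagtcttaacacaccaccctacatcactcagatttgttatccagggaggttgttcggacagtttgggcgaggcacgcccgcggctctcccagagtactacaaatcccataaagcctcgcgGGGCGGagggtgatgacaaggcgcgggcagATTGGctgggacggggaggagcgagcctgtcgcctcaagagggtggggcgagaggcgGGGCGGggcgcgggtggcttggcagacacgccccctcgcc

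Genes that load, unload and read Rabs were set beside the family. Of 121 listed, 120 had a probe and 98 were above background on all 3 days. On day 8 against day 2, 13 of 100 measured were at least 2-fold higher (13.0%, beside 13.8% of all genes) and 3 were lower (3.00%, beside 12.9%). The median difference was 0.17. The largest positive differences were those of Appl2, an early endosome effector of Rab5, at 2.50 (technical SD 0.083), and Rab3il1, an exchange factor for Rab8 that binds Rab3, at 2.18 (0.083). Optn, a Rab8 effector and autophagy receptor, had 1.99 (0.179) and Tbc1d16, a GAP, had 1.81 (0.090). The lower ones were the GAP Tbc1d1 at -1.55 (0.074), the Rab5 exchange factor Rin1 at -1.47 (0.26) and Rufy3 at -1.28 (0.186).

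On day 20 against day 8, under the main scaling, 1 of 99 machinery genes was at least 2-fold higher and 1 was lower. Each is 1.01%, beside 3.58% and 1.74% of all genes, and the median was 0.14. Myo5b, a myosin motor recruited by Rab11, was the higher one at 2.27 (technical SD 0.26), and Dennd5b, of a family of exchange factors, was the lower one at -1.04 (0.078). On day 20 against day 2, 19 of 99 were at least 2-fold higher (19.2%, beside 15.5%) and 7 were lower (7.07%, beside 17.0%), with a median of 0.31. With spike-in scaling the machinery had 18 higher and 0 lower on day 20 against day 8, and 49 and 2 on day 20 against day 2. Of all genes, that scaling put 17% higher and 0.17% lower in the first comparison, and 32% and 5.91% in the second. Under the main scaling Rab3il1 at 2.84, Tbc1d16 at 2.64, Appl2 at 2.36 and Optn at 2.33 were the largest measured differences. Myo5b failed the background criterion on day 2 and was at least 11.1-fold higher on day 20, a bound larger than those values. Rufy3 at -1.83, Dennd5b at -1.82, Tbc1d1 at -1.23 and Rin2, a Rab5 exchange factor, at -1.16 were lowest.

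By class, for day 20 against day 2, 2 of 7 prenylation and GDI genes passed 2-fold upward and 0 downward, namely Chml, a Rab escort protein, at 2.10 and Rabac1, which aids membrane insertion, at 1.28. Of 25 exchange factors 5 were higher (20%) and 2 lower (8%), and of 30 GAPs 4 were higher (13.3%) and 2 lower (6.67%). Of 37 effectors 8 were higher (21.6%) and 3 lower (8.11%). Among all genes 15.5% were higher and 17.0% lower. No class was tested against another.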

How the data were processed

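RNA of 3T3-L1 cells was measured on 3 arrays, 1 per day. The deposited intensity values are linear spot readings, background-subtracted by the scanner software and left unscaled between arrays, per the file headers. The submitters' processing notes name that software as Agilent Feature Extraction 10.7.1.1. Deposited yes or no marks (well above background, saturated, outlier) served as filters, as named in those headers. Deposited log2 values in the series table matched log2 intensity plus 1 constant per array (-9.37, -9.31 and -9.86, the negative of each array's log2 75th percentile) to within 0.01 for 100% of probes, with column medians of -4.80, -4.69 and -4.89, and served as an alternative. Scale, centring and direction of that table were thus known.

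Controls and outlier spots were dropped, replicate spots of a probe were averaged, and each array's 75th percentile was subtracted. Of the non-control probes, 26581 matched a RefSeq accession of assembly GRCm38.p6 and 12848 stayed unnamed. A gene took its brightest probe by the mean over arrays. A difference was measured where both arrays were well above background. With 1 array above, a bound was taken against the higher of the dim value and that array's lowest level above background, and "at least N-fold" refers to it. Where the dim value exceeds that lowest level the bound is the plain difference, which is not a lower limit. The threshold was 2-fold. Of 399 probes printed 10 times per array, 398, 396 and 394 kept enough spots without an outlier mark on days 2, 8 and 20. Technical SD came from these (median SD between spots 0.076, 0.081 and 0.078). All arrays shared 1 slide and scan, per the file headers, so neither separates the days. The number of arrays limits precision. The build named in the headers for the array design is older than that of the promoter table, whose coordinates alone are printed. The counting of differences was tested on simulated data. The tools were R 4.3.3 with limma 3.58.1 and Python 3.11.15 with pandas 2.3.3.

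Members, lists and pairs were chosen with earlier results of these data known. Values on each day are given for members at least 2-fold apart, for the brightest member of each role and for both genes of a pair of which 1 is 2-fold apart, and of the Rab machinery up to 4 genes in each direction per comparison. The brighter subset (mean level above 0) and the time patterns under other scalings were added after seeing the data. The normexp alternative used the median spot signal with an offset of 50.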

Additional observations from a re-analysis of the deposited data

How the results depend on the processing

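No direction of a Rab gene at least 2-fold apart reversed under the scalings, background correction, filters and probe choices tried. Some of these settings could not reverse a direction. The series table repeats the main scaling, and the filters leave the value of a kept gene as it was. Probe choice could act only on Rab3c, Rab43 and, for day 20 against day 2, Rab8b, since the others had no second probe measured in those comparisons. Counts are given as Rab genes higher and lower, then machinery genes higher and lower, where they moved by over 1.5 times. For day 8 against day 2 the main counts were 4 and 1, then 13 and 3. A 1.5-fold threshold gave 11 and 5, then 26 and 9, and a 4-fold threshold 2 and 0, then 2 and 0. Within 1.5-fold lay 63.6% of the Rab genes, 65% of the machinery and 52.2% of all genes. The share of all genes past 4-fold was not counted in any comparison. Cyclic loess and the 75th percentile over probes above background on all arrays each gave 7 Rab genes higher. No filter gave 2 Rab genes lower. The machinery had 5 lower with the array median and 1 lower with normexp or the lower-quartile filter. The Rab median was 0.11 after quantile normalization, 0.12 after both cyclic loess and the percentile of detected probes, and -0.12 after the array median.

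For day 20 against day 8 the main counts were 1 and 2, then 1 and 1. A 1.5-fold threshold gave 5 Rab genes higher, and 7 and 2 of the machinery, and a 4-fold threshold 0 and 0, with 0 of the machinery lower. Within 1.5-fold lay 81.4% of the Rab genes, 90.9% of the machinery and 82.6% of all genes. Quantile normalization gave 1 Rab gene lower and 2 of the machinery higher. Cyclic loess gave 3 and 1, then 3 and 0, spike-in scaling 10 and 0, then 18 and 0, and the array median 2 and 1, then 4 and 0. The percentile of detected probes gave 2 and 0 of the machinery. Normexp gave 0 and 1, with 0 of the machinery lower, and the lower-quartile filter 0 and 1, with 0 of the machinery higher. No filter gave 3 and 4 of the machinery, and both the mean over probes and the second brightest probe gave 0 lower. The Rab median was 0.25 with cyclic loess, 0.78 with spike-in scaling and 0.31 with the array median.

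For day 20 against day 2 the main counts were 8 and 3, then 19 and 7. A 1.5-fold threshold gave 13 and 5, then 38 and 13, and a 4-fold threshold 2 and 0, then 5 and 0. Within 1.5-fold lay 57.1% of the Rab genes, 48.5% of the machinery and 44.9% of all genes. Cyclic loess gave 13 Rab genes higher, then 30 and 3, and spike-in scaling 17 and 0, then 49 and 2. The percentile of detected probes gave 30 and 3 of the machinery, normexp 12 and 4, and quantile normalization and the array median 4 lower each. No filter gave 6 Rab genes lower, and the lower-quartile filter 3 of the machinery lower. The Rab median was 0.36 after quantile normalization and the percentile of detected probes, 0.44 with cyclic loess, 0.86 with spike-in scaling, 0.26 with the array median, 0.080 with normexp and -0.0075 with no filter. The gap between the Rab median and that of all genes was 0.047, 0.160 and 0.313 in the 3 comparisons under the main scaling. Spike-in scaling, the array median, the percentile of detected probes and the series table differ from it by a constant per array. They therefore could not change this gap. Over the other settings the Rab median was above that of all genes by 0.05 to 0.13 for day 8 against day 2. The gap was 0.15 to 0.19 for day 20 against day 8 and 0.17 to 0.39 for day 20 against day 2. Of all genes past 2-fold on day 20 against day 8, 67.3% were higher with the main scaling, 82.6% with cyclic loess, 99.0% with spike-in scaling and 34.5% with no filter. The cause of these shifts was not tested.

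No paired analysis was possible because each day has 1 array. The spread between cultures is unknown, so none of the differences has a replicate check. Probes near background, such as those of Rab7b on day 2, Rab12, Rab20, Rab33a, Rab37 and Rab3b, carry the largest technical SD, and their folds depend most on the background correction. Protein identity within pairs was not used here.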

Other observations

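Rab-like genes, small GTPases related to the family but outside the naming rule, were looked at after the values were seen. Rabl6 had levels of 3.85, 4.05 and 3.88 on days 2, 8 and 20, and Rabl2 had 1.5, 1.52 and 1.20. Both stayed within 1.5-fold. Ift27, a part of the transport machinery of cilia, had 3.21, 3.79 and 3.55, and Ift22, of the same machinery, had -0.68, -1.02 and -1.01. Rabl3 had differences of -0.48 for day 8 minus day 2 and -0.56 for day 20 minus day 2. None of these reached 2-fold in any comparison, and Rasef was not well above background.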
